A study of Daphnia magna with 36 samples.

Results

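The 100 probes described here had a positive ratio between exposed and unexposed water fleas under both chemical forms of zinc, nanoparticles of zinc oxide and dissolved zinc sulphate, and a ratio near 0 under silica nanoparticles. They were chosen from 7680 probes on a 2-colour array for Daphnia magna, of which 7546 had a value on at least 1 array. Arrays of one exposure were averaged, and each probe's median over the exposures of a group was taken at the LC25, a concentration set to be lethal to 25% of animals. Of 5664 probes with a value in 3 or more exposures of all 3 toxicants at that level, 201 had a median log2 ratio of at least 0.2 under both zinc forms. Of those, 109 had an absolute median under 0.2 with silica, 78 were at or above 0.2 with silica as well and 14 were at or below -0.2. The 100 probes with the largest smaller zinc median were kept. The LC25 values therefore chose the members and are given below as a description, with no test.

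All RNA came from whole adult females, 10 days old, exposed for 24 h at 25 °C, with 16 animals pooled per sample, and each array paired exposed RNA with RNA from an unexposed laboratory control. Zinc oxide nanoparticles (ZnO NP) were given at 9.0 mg/L (LC25) and at 2.2 mg/L, which is 1/10 of the LC50, the concentration lethal to 50% of animals. Zinc sulphate (ZnSO4), the source of zinc ions, was given at 0.91 and 0.13 mg/L, and silica nanoparticles (SiO2 NP) at 5.1 and 1.4 mg/L. Each of the 6 groups held 6 arrays. They came from 4 exposures for ZnO NP at either level, 5 for ZnSO4 at the LC25 and 3 at 1/10 LC50, and 4 and 3 for SiO2 NP, 23 exposures on 36 arrays in all, of which 13 were dye-swapped pairs and 10 single arrays. Because whole animals were pooled, fewer cells of a type and less RNA per cell cannot be told apart in these ratios.

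Zinc is an essential metal that many enzymes and transcription factors bind, and an excess of it is toxic to freshwater crustaceans. Animals hold free zinc low with transporters and with metallothioneins, small cysteine-rich proteins that bind it. Particles of zinc oxide release zinc ions into water, so animals exposed to them can meet both the particle and the ion, whereas silica particles carry no zinc. Daphnids filter particles of food from water, and suspended nanoparticles can be taken in by the same route. Probes are identified by plate position, with no gene beside it in the files. No gene, pathway or sequence could therefore be given to a member, and 2 members may stand for the same transcript.

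The labels and the file do not name the numerator of the ratios, and values are described as positive or negative. They were read as already turned to one direction on all arrays. Among 310 pairs of arrays that carried exposed RNA in the same dye, 5 had r below -0.3 across probes, the lowest at -0.520, and the median r was 0.080. Where the exposed RNA was in opposite dyes, r had a median of -0.020 over 307 pairs, went down to -0.563 and was under -0.3 in 16. Within dye-swapped pairs at the LC25, r over all probes was 0.570 and 0.715 in ZnO NP exposures 2 and 3. It was 0.492 in ZnSO4 exposure 4, and -0.258 and 0.172 in SiO2 NP exposures 1 and 3. At the lower level it ranged from -0.298 to 0.356. Read as Cy5 over Cy3, each of these r would change sign. The zinc pairs at the LC25 thus ran alike in both dyes as given, while some other pairs did not. No pair shows which RNA is the numerator, so the direction is not settled. With every sign turned, the members would be the probes negative under both zinc forms, and every count of positive and negative ratios below would be exchanged. The same rule mirrored to negative ratios took 163 probes before the limit of 100. Read instead as Cy5 over Cy3, the values put 68 probes past the thresholds, of which 8 were among the 109.

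At the LC25 the members' medians under both zinc forms were alike in size. They had a median of 0.39 under ZnO NP (range 0.21 to 1.03) and 0.39 under ZnSO4 (range 0.22 to 1.34), against 0.027 under SiO2 NP (range -0.19 to 0.19). The ZnO NP median was the larger for 58 members and the ZnSO4 median for 42, and for 72 the 2 medians lay within 0.2 of each other. Most members were small in ratio, since the smaller zinc median was at least 0.5 for 15 members and under 0.3 for 38. The limit fell among near-equal probes. The last member kept had medians of 0.21, 0.28 and 0.080 under ZnO NP, ZnSO4 and SiO2 NP, and the first one left out had 0.41, 0.21 and 0.17.

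A positive median did not mean a positive ratio in every exposure. Of the 52 members with a value in all 9 zinc exposures at the LC25, 3 were positive in all 9. Under ZnO NP, 28 of 63 members valued in every exposure were positive in each of them, where 14.7% of all probes were. Under ZnSO4 the number was 12 of 76, where 1.76% of all probes were. The rule used these values, so nothing is read from those shares. Spread between exposures was wide for the members, with a median SD of 0.47 under ZnO NP and 0.45 under ZnSO4, against 0.27 and 0.32 over all 5664 probes.

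P6AC1 and P5AE5 had the largest smaller zinc medians among members with a value in every exposure at the LC25. P6AC1 had 0.82, 0.24, 0.47 and 1.27 in the 4 ZnO NP exposures, a mean of 0.70 ± 0.45 (SD, n = 4). Under ZnSO4 it had 0.27, 0.75, -0.08, 0.86 and 1.82, a mean of 0.73 ± 0.72 (SD, n = 5). Under SiO2 NP it had -0.16, 0.07, -0.13 and 0.63. The zinc exposures were thus positive in 8 of 9 cases, and silica exposure 4 lay within their range.

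P5AE5 had 0.34, 1.33, 1.57 and 0.15 under ZnO NP at the LC25, a mean of 0.85 ± 0.71 (SD, n = 4), and 0.23, -0.21, 1.06, 1.34 and 0.62 under ZnSO4, a mean of 0.61 ± 0.62 (SD, n = 5). Under SiO2 NP it had 0.29, 0.31, -0.02 and -0.07. At 1/10 LC50, values that the rule did not use, P5AE5 had 0.25, 0.38, 0.18 and 0.21 under ZnO NP, a mean of 0.26 ± 0.09 (SD, n = 4). All 4 were positive, while ZnSO4 gave 0.53, 0.22 and -0.03 and SiO2 NP -0.11, 0.21 and -0.20, so the ranges of the groups overlapped.

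On the arrays of the zinc groups at the LC25 the members were positive in both dyes. The median over members ranged from 0.33 to 0.44 on the 4 ZnO NP arrays with exposed RNA in Cy5 and was 0.39 and 0.44 on the 2 with it in Cy3. For ZnSO4 it ranged from 0.28 to 0.48 in Cy5 and was 0.34 and 0.63 in Cy3. Both arrays of a dye-swapped pair were positive for 61 of 76 members in ZnO NP exposure 2, 58 of 77 in ZnO NP exposure 3 and 59 of 67 in ZnSO4 exposure 4. Over all probes the shares were 29.8%, 35.6% and 27.3%. The rule used the averages of these arrays, so nothing is read from these shares or from the medians by dye. The 4 arrays with the fewest values, between 46.7% and 58.4% of all probes, all belonged to these 2 groups, and without them 86 probes passed the thresholds, 70 of the 109 among them.

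The 3 groups at 1/10 LC50 were not used in choosing the members, and counts over the members are given there beside those over all probes. Under ZnO NP more members were positive than negative, 66 of 93 by their means (71.0%), against 52.2% of all probes. The means over exposures had a median of 0.12, against 0.0064 over all probes, and 33 of 93 members with a value (35.5%) had a mean of at least 0.2, against 8.95% of all probes. Without ZnO NP exposure 3 the median of the means was 0.074. At or below -0.2 were 7 members (7.53%), against 8.9% of all probes. Under ZnSO4, 7 of 96 members (7.29%) had a mean of at least 0.2, against 6.12%, and 21 (21.9%) one of -0.2 or less, against 8.54%. Under SiO2 NP these were 4 of 97 (4.12%) against 4.45%, and 13 (13.4%) against 6.35%.

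The median over members was 0.12, 0.14, 0.19 and -0.040 in the 4 exposures to ZnO NP at 1/10 LC50, a mean of 0.10 ± 0.098 (SD, n = 4). In the 3 exposures to ZnSO4 it was -0.0057, -0.035 and -0.034, and in those to SiO2 NP 0.012, 0.031 and -0.058. ZnO NP exposures 1 to 3 thus stood above all exposures of both other toxicants, and exposure 4 lay among them. The highest and lowest of the ZnO NP values, exposures 3 and 4, were single arrays with exposed RNA in Cy3. The ZnO NP exposures at 0.12 and 0.14 and all those of ZnSO4 and SiO2 NP at this level were dye-swapped pairs. These medians were not adjusted for dye, and the part of dye in the difference was not tested. For ZnSO4 the sign depended on the summary, since the members' means had a median of 0.031 and an average of -0.12. A member's mean at the LC25 was above its mean at 1/10 LC50 for 80 of 93 members under ZnO NP, 89 of 96 under ZnSO4 and 54 of 97 under SiO2 NP. The rule fixed the LC25 side of that comparison, so no test was made of it. Read as Cy5 over Cy3, the members' means under ZnO NP at 1/10 LC50 had a median of 0.034. The 100 probes negative by the mirrored rule had means with a median of -0.17 in that group, 47.4% of them at -0.2 or less. Whether one control RNA served both ZnO NP levels is not given in the labels, so a ratio that both levels share because of the control and one shared because of the exposure cannot be told apart.

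The dyes did not give alike ratios in several exposures at 1/10 LC50. In ZnO NP exposure 1, 46 of 83 members (55.4%) had opposite signs on the arrays of the dye-swapped pair, against 59.1% of all probes, and r between those arrays was -0.207 over all probes. In ZnO NP exposure 2, 19 of 89 members had opposite signs and 50 (56.2%) were positive in both dyes, against 28.3% of all probes, with r = 0.356. In the 3 ZnSO4 exposures r was -0.120, 0.142 and 0.082, and 38.2%, 33.3% and 40.4% of members had opposite signs. In those to SiO2 NP r was -0.298, 0.031 and 0.132, with 54.1%, 43.0% and 52.9%. An average over such a pair hence joins arrays that, in ZnO NP exposure 1, ZnSO4 exposure 1 and SiO2 NP exposure 1, ran against each other over all probes.

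In the limma fit, which tested 92 of the members among 5495 probes with adjustment over all of them, no member passed the threshold of 0.05 under ZnO NP at 1/10 LC50, nor did any other probe (0%). At an unadjusted p under 0.05 were 7 positive members, against 2.49% of all probes, and 1 negative, against 2.29%. P1CE8 had the largest positive fit of the members. Its exposures gave 0.10, 0.62, 0.86 and 0.55, a fitted ratio of 0.58 ± 0.17 (SE; limma, adjusted p = 0.470), with all 4 positive. P1CE8 was lower, but overlapped, under ZnSO4 at -0.18, 0.25 and 0.45. P10AA7 had the largest negative fit, from -0.47, 0.10, -0.30 and -1.64, at -0.51 ± 0.26 (SE; limma, adjusted p = 0.996), which was -0.22 without exposure 4. The median 95% confidence interval of a member reached 0.41 to either side, more than the ratios of most members, so many shifts of this size could not be detected one by one.

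Under ZnSO4 at 1/10 LC50, 1 member passed, A6F24, which was also the only probe of all 5495 to do so (0.0182%). A6F24 had -1.47, -1.45 and -1.31 in the 3 exposures, a mean of -1.41 ± 0.09 (SD, n = 3) and a fitted ratio of -1.41 ± 0.24 (SE; limma, adjusted p = 0.0492). It was negative on all 6 arrays, at -2.11, -0.76 and -0.50 with exposed RNA in Cy5 and -0.83, -2.13 and -2.11 in Cy3. The same probe was positive at the higher level of the salt, at 0.02, -0.33, 0.65, 0.51 and 0.89, a mean of 0.35 ± 0.49 (SD, n = 5), although 1 of those exposures was negative. The rule required a positive median there, so the change of sign between levels was not tested. Under ZnO NP at 1/10 LC50 it spread from -0.86 to 0.92 (-0.33, 0.92, 0.47 and -0.86), and under SiO2 NP it had 0.34, -0.37 and -0.25. The 3 salt exposures at 1/10 LC50 lay below every other exposure in the study for this probe.

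The call of A6F24 was close to the threshold. With a replicate block its ratio was -1.53 and the call was lost (limma, adjusted p = 0.169). It was lost without any 1 of the ZnSO4 or SiO2 NP exposures at 1/10 LC50 or without ZnO NP exposure 1 or 3 (limma, adjusted p between 0.0503 and 0.999), while the ratio stayed between -1.46 and -1.38. Without ZnO NP exposure 2 or 4 it held (limma, adjusted p = 0.00547 and 0.00376), and 3 members among 4 probes and 2 members among 3 probes passed. At an unadjusted p under 0.05 under ZnSO4 were 12 negative members, against 1.22% of all probes, and 1 positive, against 0.91%. P8CH2 had the largest positive fit, from 0.18, 0.29 and 0.78, at 0.42 ± 0.19 (SE; limma, adjusted p = 1.00), or 0.24 without exposure 3. Its 4 values under ZnO NP at 1/10 LC50 were positive as well, at 0.09, 0.59, 0.45 and 0.71.

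No member passed under SiO2 NP at 1/10 LC50, where no probe passed either (0%), and 0 members were at an unadjusted p under 0.05 in either direction, against 0.4% positive and 0.419% negative over all probes. P4AC2 had the largest positive fit, from 0.92, 0.44 and 0.08, at 0.48 ± 0.29 (SE; limma, adjusted p = 1.00), or 0.26 without exposure 1. The largest negative fit was that of A4H5, which had a value in 2 exposures, -0.46 and -0.68.

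Differences between toxicants at 1/10 LC50 were tested directly. Between ZnO NP and ZnSO4, 0 members passed in limma (0% of all probes), and at an unadjusted p under 0.05 were 8 members higher under ZnO NP, against 0.855% of all probes, and 0 lower, against 0.801%. Every ZnO NP exposure lay above every ZnSO4 exposure for 9 of 84 members (10.7%), against 2.51% of all probes, and below for 0, against 3.12%. A6D6 had the largest positive difference. Its values were -0.41, 1.36, 0.54 and -0.55 under ZnO NP and -0.90, -1.72 and -1.27 under ZnSO4, which did not overlap, and the fitted difference was 1.42 ± 0.50 (SE; limma, adjusted p = 1.00; 95% interval 0.37 to 2.47), or 0.90 without ZnO NP exposure 2. P8BF8 had the largest negative difference, -0.45 ± 0.25 (SE; limma, adjusted p = 1.00; -0.29 without ZnO NP exposure 2), with overlapping values of -0.19, -0.82, -0.43 and 0.57 under ZnO NP and -0.06, -0.10 and 0.22 under ZnSO4.

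Between ZnO NP and SiO2 NP, 0 members passed in limma (0% of all probes), and 0 were at an unadjusted p under 0.05, against 0.983% higher and 0.837% lower over all probes. Every ZnO NP exposure lay above every SiO2 NP exposure for 3 of 81 members (3.70%), near the 2.96% of all probes, and below for 1 (1.23%), against 2.27%. A6G5 differed by 0.55 ± 0.37 (SE; limma, adjusted p = 1.00), from 0.01, 1.47, 0.14 and -0.25 against -0.21, -0.42 and -0.31, in which exposure 4 to ZnO NP overlapped with silica, and by 0.044 without ZnO NP exposure 2. P4AC2 differed by -0.46 ± 0.39 (SE; limma, adjusted p = 1.00), or -0.24 without SiO2 NP exposure 1. The median half-width of the interval was 0.59, so the data do not show that both particles acted alike on the members.

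Between ZnSO4 and SiO2 NP, 0 members passed in limma (0% of all probes), with 5 lower under ZnSO4 at an unadjusted p under 0.05, against 0.692% of all probes, and 0 higher, against 0.655%. Every ZnSO4 exposure lay below every SiO2 NP exposure for 12 of 88 members (13.6%), against 4.21% of all probes, and above for 2 (2.27%), against 6.26%. A6F24 had the largest negative difference, -1.31 ± 0.34 (SE; limma, adjusted p = 1.00; 95% interval -2.03 to -0.60). P12DC6 had the largest positive one, 0.46 ± 0.35 (SE; limma, adjusted p = 1.00), from 0.17, 0.10 and -0.04 under ZnSO4 against -0.11, -0.66 and -0.37 under SiO2 NP.

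The members did not vary as one set. Clustered by their profile over the 13 exposures at the LC25 (average linkage on Pearson's r, mean r of at least 0.6 within a cluster), 53 of them fell into 4 blocks of 10 or more probes and 47 into none. The blocks were defined after the values were seen and are described without a test. Between pairs of probes the median r over these exposures was 0.85 in block 1 (15 probes), 0.78 in block 2 (13), 0.75 in block 3 (10) and 0.73 in block 4 (15), and it changed to 0.82, 0.76, 0.62 and 0.71 with group means removed. The blocks thus parted exposures of one group from each other. Over the 10 exposures at 1/10 LC50, which did not enter the clustering, the median r was 0.85, 0.20, 0.74 and 0.44, and 0.027 among the 47 other members. Probes of one block share all their exposures and arrays, and whether they stand for few transcripts was not tested.

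Block 1 held most of the members that were negative under the lower level of zinc sulphate, 13 of the 21 with a mean of -0.2 or less. Its median over probes was -0.99, -1.20 and -1.25 in the 3 exposures, a mean of -1.15 ± 0.14 (SD, n = 3), and 13 of its 14 probes with a value had a mean of -0.2 or less there. All 12 members with a mean of -0.5 or less in that group belonged to block 1. At the LC25 of the same salt the rule required a positive median of every member. The block was at 0.099, -0.61, 0.74, 0.35 and 0.88 there, so its median was positive in 4 of 5 exposures. In the first of those 8 of its probes had a value, 6 positive and 2 negative. Under ZnO NP it was at -0.38, 0.83, 0.18 and 1.17 at the LC25 and at -0.33, 0.92, 0.40 and -0.66 at 1/10 LC50, with both signs at either level. Under SiO2 NP it was at 0.098, -0.39, 0.15 and -0.084 at the LC25 and at 0.046, -0.36 and -0.58 at 1/10 LC50. A6F24, A6D6, A6G5 and A4H5 are members of this block, whose probes were correlated over the exposures, so their values are not 4 independent observations.

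The block was negative on all 6 arrays of ZnSO4 at 1/10 LC50 in both dyes, with medians of -1.40, -0.76 and -0.54 where exposed RNA was in Cy5 and -0.47, -1.48 and -1.95 where it was in Cy3. Without block 1, 8 of 82 members (9.76%) had a mean of -0.2 or less in that group and 3 of 82 (3.66%) under SiO2 NP at 1/10 LC50, against the 8.54% and 6.35% of all probes given above. The 12 members negative at an unadjusted p under 0.05 under ZnSO4, the 5 lower under ZnSO4 than under SiO2 NP and the 8 higher under ZnO NP than under ZnSO4 were all probes of block 1. Of the 9 members whose ZnO NP exposures all lay above those of ZnSO4, 6 belonged to the block, which left 3 of 72 (4.17%) against the 2.51% of all probes. Of the 12 whose ZnSO4 exposures all lay below those of SiO2 NP, 10 belonged to it, which left 2 of 75 (2.67%) against 4.21%. Under ZnO NP at 1/10 LC50 the excess of positive means was as large without the block, with 30 of 79 members (38.0%) at a mean of 0.2 or more and a median of 0.14.

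At the LC25, blocks 2 and 3 were highest in the same zinc exposures, ZnO NP exposure 3 and ZnSO4 exposure 4. Block 4 was highest in ZnO NP exposure 1 and ZnSO4 exposure 5. Block 2 stood at 0.42, 0.68, 1.17 and 0.30 under ZnO NP at the LC25 and at 0.075, 0.28, 0.69, 1.20 and 0.098 under ZnSO4, positive in all 9. At 1/10 LC50 its medians were positive in all 4 ZnO NP exposures (0.098 to 0.30) and all 3 ZnSO4 exposures (0.053 to 0.36). Under SiO2 NP it stood at 0.11, 0.27, -0.021 and 0.20 at the LC25 and at 0.057, 0.17 and -0.067 at 1/10 LC50. The silica values thus overlapped those of ZnSO4 at both levels and those of ZnO NP at 1/10 LC50. Block 3 stood at 0.29, 0.42, 0.96 and 0.39 under ZnO NP and 0.51, 0.39, 0.20, 1.12 and -0.015 under ZnSO4 at the LC25. At 1/10 LC50 block 3 spread from -0.62 to 0.98 under ZnO NP, wider than its range under ZnO NP at the LC25. Block 4 stood at 0.63, 0.11, -0.36 and 0.50 under ZnO NP and 0.36, 0.63, -0.22, 0.48 and 1.19 under ZnSO4. It was thus negative in exposure 3 of both zinc forms, in which block 2 was high. The 47 members outside the blocks had medians between 0.24 and 0.42 under ZnO NP and between 0.25 and 0.53 under ZnSO4, positive in all 9 exposures, with a median r between members of 0.14 over the exposures at the LC25 and 0.027 with group means removed.

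Blocks were not closed to other probes. The profile of a block was the median over its probes in each exposure, and 5372 probes with values in 18 or more exposures were compared with it. For block 1, 18 probes had r of at least 0.8, of which 12 belonged to it and 6 were no members. For blocks 2 and 3 these were 8 of 17 and 14 of 21 that were no members. For block 4 it was 98 of 105, and the probes with its profile therefore lay mostly outside the set that the thresholds took.

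Members came from all 20 plates named in the probe identifiers, with unequal shares. The plates whose names begin with A held 39 members among 1469 probes that could be chosen (2.65%) and the P plates 61 among 4195 (1.45%), against 1.77% over all plates. Values were missing more often on A plates, where 1469 of 2688 probes met the condition on values, against 4195 of 4992 on P plates. Plates A6 and A1 held the most, 12 of 263 and 11 of 340. Block 1 drew 14 of its 15 probes from A plates and block 2 drew 12 of 13 from P plates. By the mirrored rule the order was turned, at 1.57% of A and 3.34% of P probes before the limit. The median SD between exposures was higher on A than on P plates in all 6 groups, for example 0.31 against 0.26 under ZnO NP at the LC25, and the part of that spread in the shares was not tested.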

How the data were processed

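The authors deposited one log2 ratio per probe and array from 2-colour arrays; log2 is an assumption, since the base, numerator, background correction and normalization are not given in the sources used here. Array medians lay between -0.075 and 0.11. Arrays with the same exposure number in the titles were averaged, giving 23 exposures; the design text speaks of 3 exposures per condition. No pair of arrays held identical values, and only the spread between exposures is measured. The 6 groups were fitted together with limma 3.58.1 in R 4.3.3 (lmFit, eBayes; two-sided, Benjamini-Hochberg over 5495 probes with at least 2 exposures in every group), with a dye term for single arrays, and differences by refitting. The fit was tested on simulated data. Deviations from group means of same-numbered exposures at 1/10 LC50 correlated at 0.14 to 0.49 between ZnSO4 and SiO2 NP, over 0.1 in 3 of 3 pairs. Those of ZnO NP correlated at -0.25 to 0.29 with ZnSO4 and -0.16 to 0.16 with SiO2 NP, over 0.1 in 1 of 3 pairs each. Differently numbered exposures of the 3 groups correlated at -0.40 to 0.43, over 0.1 in 6 of 24 pairs. ZnSO4 exposure 1 had r = 0.24 with SiO2 NP exposure 2 and 0.14 with SiO2 NP exposure 1. ZnO NP exposure 4 had r = 0.43 with ZnSO4 exposure 3 and 0.25 with SiO2 NP exposure 3. ZnO NP exposure 3 had r = 0.33 with ZnSO4 exposure 2 and 0.25 with SiO2 NP exposure 2. The numbers were taken to pair ZnSO4 with SiO2 NP but not with ZnO NP, from the data and not from the labels. That pairing is uncertain, and whether ZnO NP exposures share a batch with exposures of another number was not tested. The main fit held no term for either. Probes named are, per comparison, the largest positive and negative fit among members, or those past the threshold, and at the LC25 the 2 largest smaller zinc medians with full values. Members and lists were chosen with earlier results of these data known. Gene lists were not run because 0 probe identifiers matched the gene table. Blocks were clustered with scipy 1.17.1. Alternatives covered scaling, thresholds, dye reading, weights and exposures left out.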

Additional observations from a re-analysis of the deposited data

Results flagged for a closer look

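Of 66 groups of 4 or 5 exposures examined, 2 held an exposure far from the others, and about 1 in 20 would by chance. In SiO2 NP exposure 4 at the LC25, a single array, the median over block 3 was -0.59, while the other 3 exposures lay between 0.038 and 0.13. All 10 probes of the block were negative there. A4H5, a probe of block 1, had -2.40 in ZnSO4 exposure 2 at the LC25 and between 0.17 and 1.01 in the other 4 exposures. The whole of block 1 was low in that exposure, with a median of -0.61 and 11 of 12 valued probes negative.

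The median over members had one sign in every exposure at each ZnSO4 level, and the signs were opposite. It averaged 0.37 over the 5 exposures at the LC25 and -0.025 over the 3 at 1/10 LC50. The difference was not tested, because the rule fixed the sign at the LC25. Without block 1 (left out after its values were seen), the medians at 1/10 LC50 ranged from -0.0090 to 0.048, so they no longer shared one sign.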

How the results depend on the processing

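Which probes were members depended on the processing. With exposures of the LC25 left out in turn, between 70 (without ZnO NP exposure 1) and 125 probes met the thresholds, and reading the values as Cy5 over Cy3 gave 68, of which 8 were shared; with arrays scaled to one spread it was 107, with 91 shared. Members called under ZnO NP at 1/10 LC50 numbered 1 (19 of all 5495 probes) when single arrays were fitted with a random block per exposure and 7 (86 of all; 4 members positive, 3 negative) with array weights. The estimated correlation between arrays of one exposure was -0.017, so the random block in effect counts them as separate replicates. Under ZnSO4 they numbered 8 (of 12) and 7 (of 18) in these settings, all negative, and 0 to 3 with exposures left out (up to 4 of all). They numbered 0 with scaled arrays, no minimum of exposures outside 1/10 LC50, only the 3 groups at 1/10 LC50 fitted or a robust prior. Without the 4 arrays with the fewest values, a setting chosen after seeing the data, they numbered 0 as well. On the Cy5 over Cy3 reading 0 were called, but among 65 tested probes that this reading itself chose, not among the members described here. Between ZnO NP and ZnSO4 they numbered 8 (of 25) with array weights, all positive, and 0 to 1 with exposures left out (1, the only probe, without ZnO NP exposure 4). The median of the members' means under ZnSO4 at 1/10 LC50 was 0.014 on the Cy5 over Cy3 reading and ranged from -0.00082 to 0.024 with exposures left out. The Cy5 over Cy3 reading turned the sign of P1CE8 (-0.30), P10AA7 (0.31) and P8CH2 (-0.15), of A6F24 under ZnSO4 (0.28) and against SiO2 NP (0.34), and of A4H5 (0.61), A6D6 (-0.045) and P8BF8 (0.24). That reading reverses every array with exposed RNA in Cy3 before averaging. Ratios alike in both dyes then cancel in a dye-swapped pair, and single Cy3 arrays change sign. Of 246 values of named probes under alternatives, 222 kept their direction and side of the threshold. Only A6F24 under ZnSO4 passed in the main fit, so for the other named results the same side meant that they again did not pass. The 14 values that lost a call were all of A6F24 under ZnSO4, while 2 values gained a call and 8 changed sign. The count of 222 therefore does not show that the call of A6F24 was stable. The fit with a replicate block called 0 members in every comparison, lost A6F24 (-1.53, limma, adjusted p = 0.169) and changed no other call. Its block gave a term to each exposure number across all 6 groups, not only to ZnSO4 and SiO2 NP at 1/10 LC50. Block 1 held the same 15 probes with a mean r of at least 0.5 or 0.7, while the others shrank to 8, 7 and 8 at 0.7. Signal over background was not used here, and the few exposures limit the precision.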
